A study of Mus musculus with 2 samples.

Results

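The megalin-cubilin system of the kidney was described by 6 genes, chosen by symbol as the receptors and the proteins that carry, anchor or serve them: *Lrp2*, *Cubn*, *Amn*, *Dab2*, *Lrpap1* and *Clcn5*. All 6 were found once each among the 55471 genes of the deposited table. The RNA was sequenced in bulk from EpCAM-CD45-Nephrin-Pdpn+ cells sorted from the kidneys of male C57BL/6J mice, which the sample entries give as 12 weeks old. The sources differ on the sort, since the sample entries describe selection by a Pdpn antibody alone, while the design text and the study's methods add EpCAM depletion and gates on CD45 and Nephrin. VhlhKO mice carried *Hoxb7-Cre-GFP* and *Vhlh* loxP/loxP, so that Cre deletes *Vhlh*, the mouse gene of the von Hippel-Lindau tumor suppressor, in those tubule cells where the *Hoxb7* promoter is active. Ctrl mice carried *Hoxb7-Cre-GFP* by their genotype label, while the free text of the same sample names *Vhlh* loxP/loxP without Cre. There was 1 library of pooled mice per genotype, and the sources differ on how many mice were pooled. The sorted cells were held in endothelial medium for several hours before RNA extraction, and the Cre driver acts in the tubule epithelium, not in the Pdpn+ cells aimed at.

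Proximal tubule cells recover filtered proteins from the urine by endocytosis. Megalin, encoded by *Lrp2*, is a giant receptor of the LDL receptor family, and cubilin, encoded by *Cubn*, is a peripheral protein with no membrane span that depends on amnionless, encoded by *Amn*, to reach and stay at the apical surface. Their ligands include albumin, vitamin-binding proteins and small plasma proteins, and loss of either receptor in the kidney causes loss of such proteins in the urine. *Dab2* encodes the adaptor that links the tail of megalin to clathrin and myosin VI, *Lrpap1* encodes the chaperone RAP of the endoplasmic reticulum that keeps newly made receptors of this family free of ligand, and *Clcn5* encodes the endosomal chloride-proton exchanger ClC-5, which is mutated in Dent disease.

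The bases upstream of the 3 genes of the receptor complex are shown because these genes lay lowest of the 6 in both libraries and differ in promoter composition. The windows are RefSeq sequence of GRCm38, 5′ to 3′ on the strand of the gene, and end before the first annotated base of the gene. Capitals mark exact matches to any of 3 short motifs searched on both strands.
*Lrp2*, chr2:69586066-69586279, minus strand: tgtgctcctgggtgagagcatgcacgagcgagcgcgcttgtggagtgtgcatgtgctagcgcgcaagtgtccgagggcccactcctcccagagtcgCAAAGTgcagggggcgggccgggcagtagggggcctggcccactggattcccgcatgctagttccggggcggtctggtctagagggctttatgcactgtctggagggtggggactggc
*Cubn*, chr2:13491877-13492126, minus strand: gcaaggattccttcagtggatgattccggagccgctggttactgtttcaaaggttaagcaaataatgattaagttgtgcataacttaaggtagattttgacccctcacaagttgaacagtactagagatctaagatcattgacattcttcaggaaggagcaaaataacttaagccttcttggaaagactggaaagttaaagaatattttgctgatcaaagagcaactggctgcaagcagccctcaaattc
*Amn*, chr12:111270846-111271094, plus strand: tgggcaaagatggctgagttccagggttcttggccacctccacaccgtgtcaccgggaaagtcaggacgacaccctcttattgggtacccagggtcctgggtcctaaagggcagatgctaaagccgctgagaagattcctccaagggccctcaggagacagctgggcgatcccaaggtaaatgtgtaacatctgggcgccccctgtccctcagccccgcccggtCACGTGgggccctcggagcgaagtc

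The window of *Lrp2* is 65.9% GC and that of *Amn* 61.0%, while that of *Cubn* is 39.6%, against a median of 52.4% over the 250 bases before the start in all 32851 promoter windows. The motif CAAAGT, a short motif of the hepatocyte nuclear factor HNF4, stands 154 bases before the RefSeq start of *Lrp2*. The palindrome CACGTG, which holds the hypoxia response core ACGTG on both strands, stands 26 bases before the start of *Amn*. None of the 3 motifs is in the window of *Cubn*. In the 300-base windows of the 6 genes, 8 in all because *Dab2* and *Clcn5* have a pair of starts each, CAAAGT was found in 3, ACGTG in 2 and the second hypoxia core GCGTG in 3. Of all 32851 windows, 14.4% hold CAAAGT, 19.6% ACGTG and 32.4% GCGTG. A match describes the letters only.

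All 6 genes were detected in both libraries, and none of them differed by 2-fold between VhlhKO and Ctrl. A gene was counted as past 2-fold where its log2 ratio of VhlhKO over Ctrl, with 0.5 CPM (counts scaled to the library total) added to both sides, reached 2-fold and at least 1 library had 20 counts. By this rule 2.23% of the 15275 genes with enough counts were past 2-fold, so that 0 of 6 is no departure from the rest of the table. The largest difference was that of *Lrp2*, 1.36-fold higher in VhlhKO. With a single library per genotype no test could be made, and the exact 95% intervals given here describe counting error alone. They leave out the spread between mice and treat PCR copies as separate molecules.

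Per length, the 6 genes spanned 59.8-fold in VhlhKO and 63.8-fold in Ctrl, and stood in the same order in both. On the TPM scale, which divides by gene length, the chaperone gene *Lrpap1* was the most abundant, at 91.5 TPM (88.6 to 94.6) in VhlhKO against 85.0 TPM (82.0 to 88.0) in Ctrl. The adaptor gene *Dab2* followed at 61.0 TPM (59.2 to 62.8) in VhlhKO against 63.1 TPM (61.2 to 65.1) in Ctrl, and the exchanger gene *Clcn5* at 48.4 TPM (47.1 to 49.7) in VhlhKO against 45.3 TPM (44.0 to 46.6) in Ctrl. The receptors themselves were far lower.

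*Lrp2* was at 9.52 TPM (9.05 to 10.0) in VhlhKO against 7.01 TPM (6.59 to 7.45) in Ctrl. *Amn* was at 2.94 TPM (2.19 to 3.85) in VhlhKO against 3.11 TPM (2.32 to 4.09) in Ctrl, and *Cubn* at 1.53 TPM (1.34 to 1.75) in VhlhKO against 1.33 TPM (1.14 to 1.54) in Ctrl. No neighbours in this order had overlapping counting intervals within a library. *Lrp2*, *Amn* and *Cubn* together with their partners summed to 214.9 TPM in VhlhKO against 204.9 TPM in Ctrl, of which *Lrp2* made up 4.43% in VhlhKO and 3.42% in Ctrl, and *Cubn* 0.713% in VhlhKO and 0.650% in Ctrl.

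**Figure D1:**
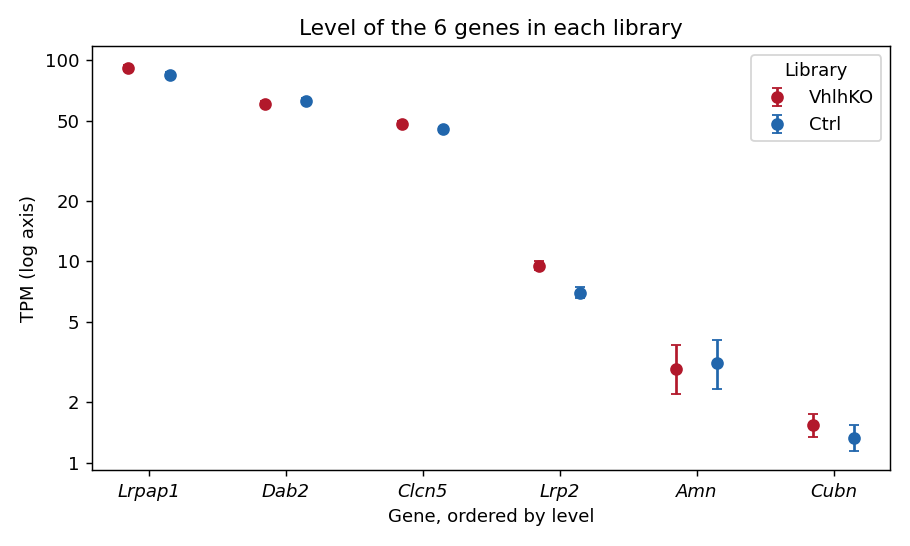
Level of each gene in TPM on a log axis, with VhlhKO left of Ctrl and bars for the 95% counting interval of the single library. The chaperone, adaptor and exchanger genes lie between 45.3 and 91.5 TPM in both libraries, and *Lrp2*, *Amn* and *Cubn* lie between 1.33 and 9.52 TPM.

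*Lrp2* spans 161.7 kb on the minus strand of chromosome 2 of GRCm38 from 69424340 to 69586065, with 79 exons in its longest model. The VhlhKO library held 1528 of its counts, against 1041 in the Ctrl library. After scaling this was 44.5 CPM in VhlhKO against 32.6 CPM in Ctrl, a count ratio of 1.36 (1.26 to 1.48). The interval excluded 1. Of the 15275 measured genes, 10.2% had a log2 ratio at least as far from 0 as the 0.44 of *Lrp2*, and 93.0% had a lower one.

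*Cubn* lies on the same chromosome and strand, from 13276338 to 13491813, with 67 exons. It had 220 counts in VhlhKO against 177 in Ctrl, a count ratio of 1.16 (0.943 to 1.42) that was not separable from 1 at this depth. The noncoding gene *Gm13270* overlaps an exon of *Cubn* on the other strand and had 23 counts in VhlhKO against 29 in Ctrl. The libraries were strand-specific, but it is not stated whether the counting used strand, so a share of these reads could belong to either gene.

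*Amn*, a short gene of 12 exons on the plus strand of chromosome 12 from 111271095 to 111276426, had 52 counts in VhlhKO against 51 in Ctrl. Its count ratio was 0.947 (0.631 to 1.42), and differences inside this interval were not detectable at this depth. Both genes of the cubilin complex were thus present at low levels. Per length there were 1.92 *Amn* transcripts for each *Cubn* transcript in VhlhKO (1.39 to 2.60) and 2.33 in Ctrl (1.68 to 3.21), and the ratio of these ratios had an interval of 0.519 to 1.30.

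The receptor *Lrp2* and its 3 service genes did not keep the same proportion in the libraries. Per *Lrp2* count there were 2.82 counts of *Dab2* in VhlhKO (2.66 to 2.99) and 3.96 in Ctrl (3.70 to 4.24), and the ratio of these ratios was 0.711 (0.649 to 0.778). For *Lrpap1* it was 0.793 (0.723 to 0.871) and for *Clcn5* 0.786 (0.719 to 0.860). These intervals exclude 1, so the smaller proportions in VhlhKO were beyond counting error. All 3 ratios share the same *Lrp2* counts and are not separate results. The service genes also differed among themselves, with a ratio of ratios of 1.12 (1.05 to 1.19) for *Lrpap1* to *Dab2*. That of *Dab2* to *Clcn5* was 0.904 (0.853 to 0.959). How common such intervals are among gene pairs was not tested. Against the other receptor genes the depth was too low to tell, since the ratio of *Lrp2* to *Cubn* in VhlhKO over that in Ctrl was 1.18 (0.948 to 1.47) and that of *Lrp2* to *Amn* 1.44 (0.951 to 2.18).

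The adaptor gene *Dab2*, on the plus strand of chromosome 15 from 6299788 to 6440712, had 4302 counts in VhlhKO against 4122 in Ctrl, a count ratio of 0.970 (0.929 to 1.01). Its interval included 1 and was the narrowest to do so. *Lrpap1*, on the minus strand of chromosome 5 from 35091501 to 35105766, had 3622 counts in VhlhKO against 3111 in Ctrl, a count ratio of 1.08 (1.03 to 1.14). *Clcn5*, on the minus strand of chromosome X from 7153810 to 7319358, had 5329 counts in VhlhKO against 4617 in Ctrl, a count ratio of 1.07 (1.03 to 1.12).

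The intervals of *Lrp2*, *Lrpap1* and *Clcn5* excluded 1 and those of *Cubn*, *Amn* and *Dab2* did not. Such an interval is common in deep libraries: 36.3% of all measured genes had one (19.0% above 1 and 17.3% below 1), and 59.6% of the 2992 genes with at least 5000 counts over both libraries (28.0% above 1), a class that holds *Dab2*, *Lrpap1* and *Clcn5*. The log2 ratios of *Lrpap1* and *Clcn5* were 0.11 and 0.10, and 49.4% and 53.7% of measured genes lay at least as far from 0. The median log2 ratio of the 6 genes was 0.11, with a range of -0.06 to 0.44, beside a median of 0.00 and quartiles of -0.10 and 0.12 over all measured genes.

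**Figure D2:**
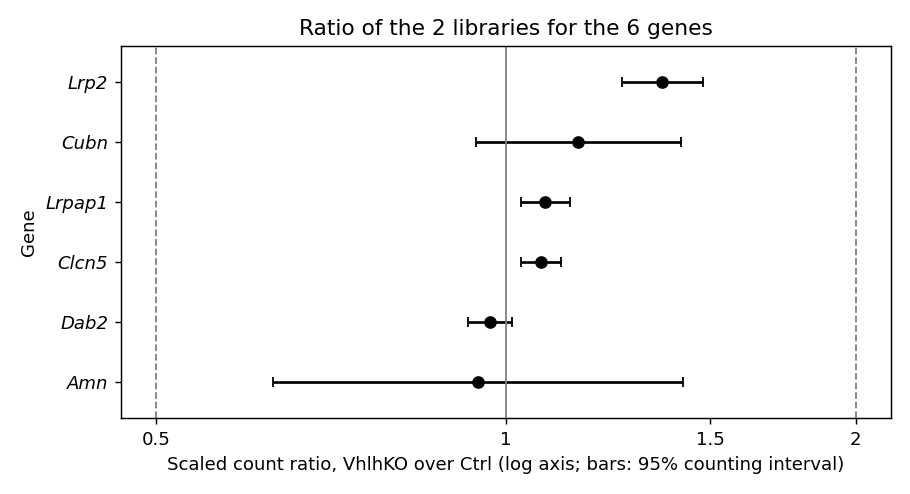
Scaled count ratio of VhlhKO over Ctrl on a log axis for each gene, with bars for the 95% counting interval, a solid line at 1 and dashed lines at 2-fold in both directions. All 6 intervals lie inside the dashed lines, and that of *Lrp2* (1.26 to 1.48) lies farthest above 1.

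The other genes of the proximal tubule were mixed, with several of low count lower in VhlhKO. Of a list of 30 proximal tubule genes without the 6, 21 had enough counts, of which 11 were lower in VhlhKO by 2-fold or more and 1, the water channel gene *Aqp1* (66 counts in VhlhKO against 16 in Ctrl), was higher, beside 0.524% lower and 1.71% higher over all measured genes. Of the 11, 9 reached 20 counts through the Ctrl library alone, where they were high, so that their number does not describe the list, and only *Gsta2* and *Slc27a2* had 20 counts in both libraries. *Aqp1* reached 20 counts in VhlhKO alone, where it was high. With 5 CPM added no gene of the list was past 2-fold. A gene below 5 CPM in both libraries cannot be past it there, whatever its difference. Of the 11 and *Aqp1*, only *Gsta2* exceeded 5 CPM, so the setting does not test the others. The phosphate transporter gene *Slc34a1* had no counts in VhlhKO against 51 in Ctrl, at least 18.3-fold lower if 3 counts are taken as the floor of the VhlhKO library (14.3-fold by the exact interval, which also holds the counting error of Ctrl), and the gluconeogenic enzyme gene *Fbp1* had none in VhlhKO against 42 in Ctrl, at least 15.1-fold lower on the same floor (11.7-fold by the exact interval). *Gsta2*, a glutathione transferase, had 22 counts in VhlhKO against 184 in Ctrl, 9.00-fold lower (5.77 to 14.7), and *Fxyd2*, a subunit of the sodium pump, had 2 in VhlhKO against 48 in Ctrl. None of the 11 exceeded the 5.76 CPM of *Gsta2* in Ctrl. *Slc34a3*, *Slc22a6* and *Slc22a12* had no counts in either library.

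The better counted genes of the same list went both ways. Of the 9 genes that reached 100 counts in a library, 2 were at least 2-fold lower and none was higher, the counting interval lay above 1 for 4 and below 1 for 3, and their median log2 ratio was 0.06, while that of all 21 was -1.17. The list as a whole summed to 237.4 CPM in VhlhKO against 221.1 CPM in Ctrl. The bicarbonate transporter gene *Slc4a4* had 2345 counts in VhlhKO against 1899 in Ctrl (1.15-fold, 1.08 to 1.22), the argininosuccinate synthase gene *Ass1* 1231 in VhlhKO against 1184 in Ctrl (0.966, 0.891 to 1.05), and the brush border peptidase genes *Mme* 1448 in VhlhKO against 855 in Ctrl (1.57-fold, 1.45 to 1.71) and *Anpep* 102 in VhlhKO against 169 in Ctrl (0.561, 0.434 to 0.721). Per count of the whole list there were 0.187 counts of *Lrp2* in VhlhKO (0.177 to 0.198) and 0.147 in Ctrl (0.138 to 0.157), 0.0270 of *Cubn* in VhlhKO against 0.0251 in Ctrl, and 0.00638 of *Amn* in VhlhKO against 0.00723 in Ctrl. These proportions, too, are set against the genes of the list with most counts.

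**Figure D3:**
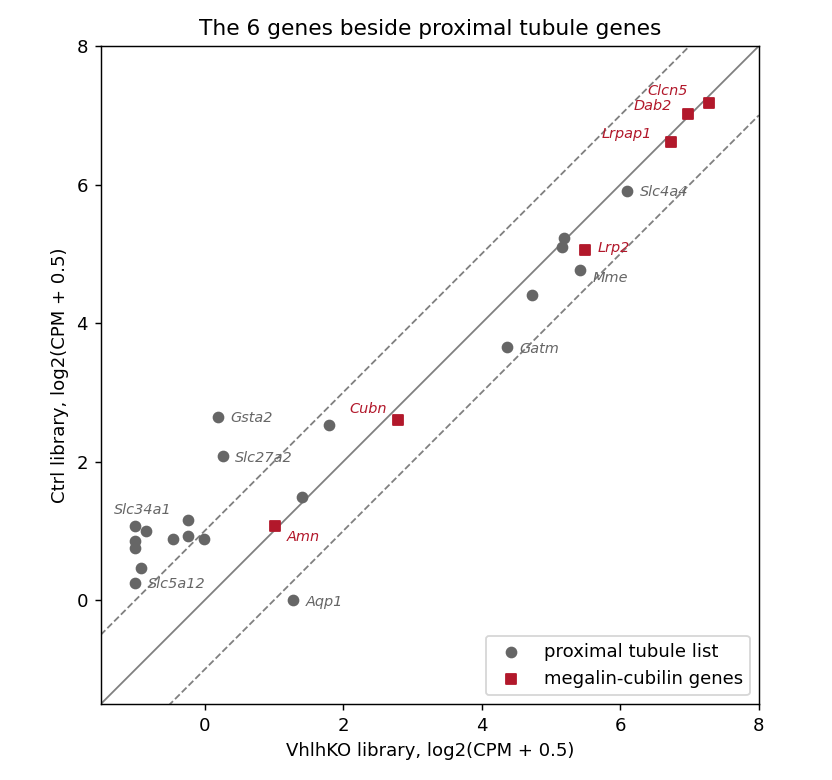
Level of each measured gene in the VhlhKO library (x axis) and the Ctrl library (y axis) as log2 of CPM plus 0.5, for the 6 genes (squares) and the proximal tubule list (circles), with a solid line of equal level and dashed lines at 2-fold. The 6 squares lie inside the dashed lines, while 11 of the 21 circles lie above them, all at low level.

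Markers of other cell types also differed between the libraries, and the part of these or of the proximal tubule genes in the values of the 6 genes was not tested. In bulk RNA, fewer cells of a type and less RNA per cell cannot be told apart. Macrophages also use *Dab2* and carry CD45. The study's methods describe a CD45 gate, while the sample entries name none. Macrophage genes had counts in both libraries, and their part in the *Dab2* value was not tested. Of 14 macrophage genes 11 had a log2 ratio above 0 and 10 a counting interval above 1, beside 19.0% of all measured genes with such an interval. By the 2-fold rule *Lyz2* (2007 counts in VhlhKO against 522 in Ctrl) was at least 2-fold higher and *Cd163* (5 in VhlhKO against 38 in Ctrl) lower, a count of 2 that was 7 with 0.05 CPM added and 4 on TPM. *Cd163* reached 20 counts in Ctrl alone, where it was high. The macrophage list summed to 135.6 CPM in VhlhKO against 76.5 CPM in Ctrl, of which *Lyz2* alone gave 58.4 CPM in VhlhKO and 16.4 CPM in Ctrl. *Dab2* was at 125.2 CPM in VhlhKO against 129.1 CPM in Ctrl. Of 8 measured podocyte genes 2, *Podxl* and *Tcf21*, were at least 2-fold higher, and 6 had a counting interval above 1 and 1 below 1. Over all measured genes, 1.71% were at least 2-fold higher, 19.0% had a counting interval above 1 and 17.3% one below 1. The podocyte list summed to 789.8 CPM in VhlhKO against 525.2 CPM in Ctrl. Parietal epithelial genes summed to 6988 CPM in VhlhKO against 7647 CPM in Ctrl, with none of 10 past 2-fold, beside 2.23% of all measured genes. The most abundant of them alone gave 5563 CPM in VhlhKO and 6247 CPM in Ctrl. Fibroblast and mural genes summed to 7968 CPM in VhlhKO against 7584 CPM in Ctrl, of which the most abundant gave 4075 CPM in VhlhKO and 4556 CPM in Ctrl. Of 11 measured, 5 (*Col1a1*, *Col1a2*, *Col3a1*, *Pdgfra* and *Des*) were higher by 2-fold or more, beside 1.71% of all measured genes. *Pdgfra* reached 20 counts in VhlhKO alone, where it was high. Of 8 genes of the lymphatic endothelium, the cell type the sort aimed at, 5 had enough counts. Of these *Lyve1* alone was past 2-fold, beside 2.23% of all measured genes. *Lyve1* had 128 counts in VhlhKO against 10 in Ctrl. It thus reached 20 counts in VhlhKO alone, where it was high. At 3.73 CPM in VhlhKO it could not be past 2-fold with 5 CPM added, whatever its level in Ctrl. The defining lymphatic genes *Mmrn1* and *Ccl21a* were at 0 in both, *Prox1* had 142 counts in VhlhKO against 144 in Ctrl, and *Pdpn*, the antigen selected, had 2313 counts in VhlhKO against 1836 in Ctrl. Of 10 genes of other tubule segments 6 were measured with none past 2-fold, beside 2.23% of all measured genes. *Epcam*, whose depletion only some of the sources describe, came near (155 counts in VhlhKO against 69 in Ctrl, a log2 ratio of 0.91 with 0.5 CPM added). The list of other tubule segments summed to 167.2 CPM in VhlhKO against 191.2 CPM in Ctrl. Its most abundant gene alone gave 90.5 CPM in VhlhKO and 123.9 CPM in Ctrl. Of the 6 measured genes, 5 had a log2 ratio above 0 and 1 below. *Umod* and *Aqp2* had no counts in either library. The 8 blood endothelial genes summed to 19.5 CPM in VhlhKO against 16.5 CPM in Ctrl.

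Megalin was scarce beside its relative *Lrp1* in these cells. *Lrp1*, a large endocytic receptor that RAP also serves, was at 426 TPM in VhlhKO against 356 TPM in Ctrl, 44.8 times the level of *Lrp2* in VhlhKO (42.6 to 47.1) and 50.8 times in Ctrl (47.8 to 54.1). Its count ratio of 1.20 (1.19 to 1.21) was lower than that of *Lrp2*, and the proportion of *Lrp1* to *Lrp2* in VhlhKO over that in Ctrl was 0.881 (0.813 to 0.954). Of the 12 measured genes of the family other than *Lrp2*, 1 was at least 2-fold lower and none higher. Over all measured genes 0.524% were lower and 1.71% higher. The median log2 ratio of the 12 was 0.11. The lower gene was *Sorl1*, a sorting receptor of the endosome, with 414 counts in VhlhKO against 1109 in Ctrl, 2.88-fold lower (2.57 to 3.24). The Wnt coreceptor gene *Lrp5* had the largest ratio above 1, 1251 counts in VhlhKO against 903 in Ctrl (1.29-fold, 1.18 to 1.40), the very low density lipoprotein receptor gene *Vldlr* had 2919 in VhlhKO against 3289 in Ctrl (0.825, 0.784 to 0.867), and *Lrp11* had 1089 in VhlhKO against 839 in Ctrl (1.21-fold, 1.10 to 1.32).

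The shared machinery of endocytosis was close in the libraries, as were most genes, since 93.4% of measured genes lay within 1.5-fold. None of 24 genes of clathrin, its adaptors and scission was past 2-fold, with a median log2 ratio of 0.02. Over all measured genes 2.23% were past 2-fold, so that 0 of 24 is no departure from the rest of the table. *Cltc*, the clathrin heavy chain, had 25675 counts in VhlhKO against 23772 in Ctrl (1.00, 0.986 to 1.02). The largest ratio in this list was that of *Inpp5b*, a phosphoinositide phosphatase (1.19, 1.09 to 1.30), while its relative *Ocrl*, mutated in Lowe syndrome and also a cause of Dent disease, had 2497 counts in VhlhKO against 2509 in Ctrl (0.925, 0.874 to 0.978).

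None of the 21 measured genes of endosome sorting and recycling was past 2-fold (median 0.04), beside 2.23% of all measured genes. *Rab38*, a small GTPase of lysosome-related organelles, came closest, with 155 counts in VhlhKO against 75 in Ctrl, a count ratio of 1.92 (1.45 to 2.57). The recycling genes *Ehd3* (1.31, 1.17 to 1.46) and *Rab4a* (0.735, 0.647 to 0.834) lay on opposite sides of 1.

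Endosome acidification, the step in which ClC-5 works beside the vacuolar proton pump, showed no gene of 21 past 2-fold and a median of 0.06. Of all measured genes 2.23% were past 2-fold. The related exchanger gene *Clcn4* was at 60.4 TPM in VhlhKO against 57.1 TPM in Ctrl, 1.25 times the level of *Clcn5* in VhlhKO and 1.26 times in Ctrl, so the pair kept the same proportion within counting error (0.991, 0.936 to 1.05). The pump subunit gene *Atp6v0d2* had 135 counts in VhlhKO against 205 in Ctrl (0.612, 0.489 to 0.764) and *Atp6v1f* 2938 in VhlhKO against 2171 in Ctrl (1.26, 1.19 to 1.33). The subunit gene *Atp6v1g3* had no counts in either library.

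Lysosomal genes lay slightly above 1. Of 14, none was past 2-fold, beside 2.23% of all measured genes. For 13 the log2 ratio was above 0, and for 10 the counting interval lay above 1, beside 19.0% of all measured genes. Depth bears on this share, since 9 of the 14 had at least 5000 counts, of which 8 had such an interval, beside 28.0% of all genes of that depth. The cathepsin genes *Ctsh* (1166 counts in VhlhKO against 619 in Ctrl, ratio 1.75, 1.59 to 1.93) and *Ctsb* (32966 in VhlhKO against 22774 in Ctrl, ratio 1.35, 1.32 to 1.37) had the largest ratios. Over the 14 genes the median was a log2 ratio of 0.14.

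**Figure D4:**
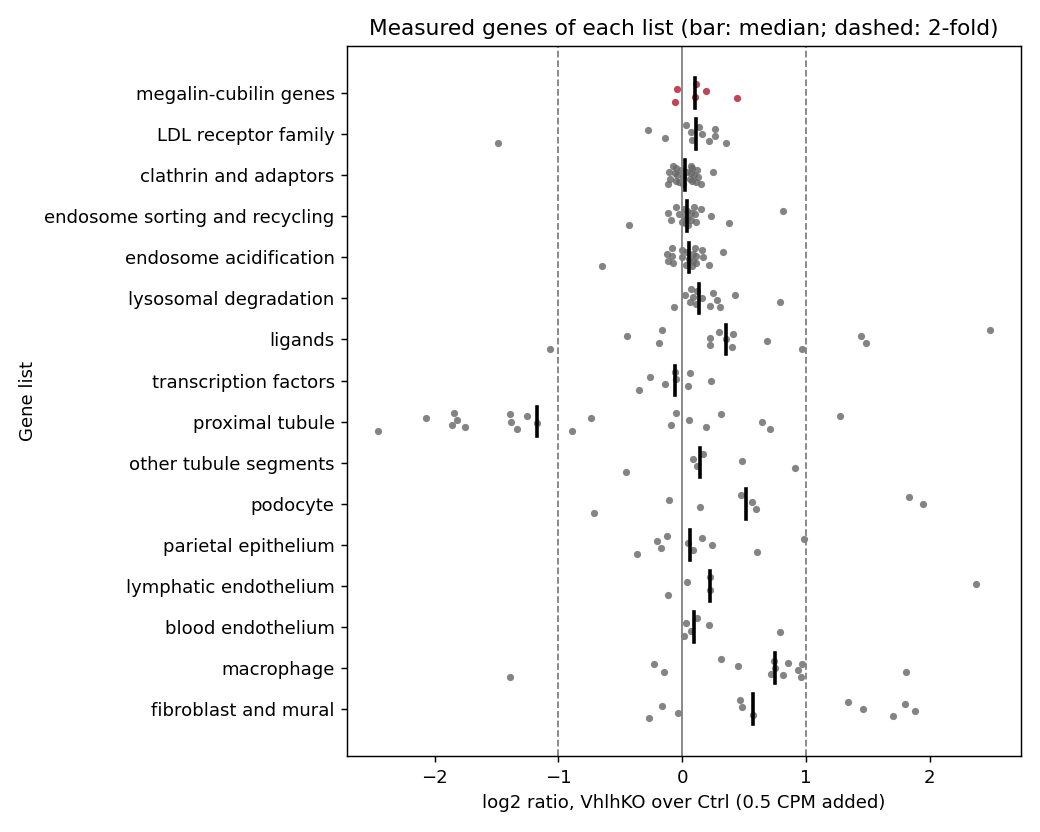
The log2 ratio of VhlhKO over Ctrl with 0.5 CPM added for every measured gene of each list, with a bar at the median and dashed lines at 2-fold. The 6 genes (top row) have a median of 0.11 and the 4 lists of endocytic and lysosomal machinery medians of 0.02 to 0.14, while the proximal tubule list lies at -1.17 and the macrophage list at 0.75. The last 2 medians depend on genes of low count. With 5 CPM added they were -0.22 and 0.23, and with a minimum of 100 counts 0.06 and 0.81.

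Genes of the ligands of megalin and cubilin, listed with the vitamin D genes that depend on this uptake, were measured in 15 of 31 cases. The ligand genes of albumin (*Alb*), plasminogen (*Plg*) and the gastric vitamin B12 carrier intrinsic factor (*Cblif*) had no counts in either library. Of the 15 genes, 3 were at least 2-fold higher and 1 was lower, beside 1.71% higher and 0.524% lower over all measured genes. *Lpl*, lipoprotein lipase, had 1654 counts in VhlhKO against 261 in Ctrl (5.89-fold, 5.16 to 6.73), and *Lcn2*, the iron-siderophore carrier lipocalin 2, had 1183 in VhlhKO against 382 in Ctrl (2.88-fold, 2.56 to 3.24).

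The other pair past 2-fold belonged to vitamin D. Megalin takes up the vitamin D carrier so that the tubule can activate the hormone, with Cyp27b1 as the activating enzyme and Cyp24a1 as the inactivating one. *Cyp27b1* had 11 counts in VhlhKO against 39 in Ctrl, 3.82-fold lower (1.92 to 8.26), and *Cyp24a1* had 129 counts in VhlhKO against 34 in Ctrl, 3.53-fold higher (2.40 to 5.31). Both were of low count, and *Cyp27b1* reached 20 counts in Ctrl alone. With 5 CPM added 2 of the 4 calls were left. *Cyp27b1* and *Cyp24a1* lay below 5 CPM in both libraries and could not be past 2-fold there, so that setting does not test them. *Vdr*, the vitamin D receptor, had 2431 counts in VhlhKO against 1694 in Ctrl (1.33-fold, 1.25 to 1.42), and *Gc*, the vitamin D carrier, 327 in VhlhKO against 420 in Ctrl (0.723, 0.624 to 0.838).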

How the data were processed

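Bulk RNA-Seq of sorted Pdpn+ kidney cells was analysed in 1 VhlhKO and 1 Ctrl library. Per gene, the table the authors deposited gives raw counts and TPM, a level divided by gene length and library total. The TPM of each gene followed from its counts by the same factor, so TPM is no separate evidence. Among the tools in the submitters' notes are cutadapt, STAR, featureCounts and DESeq2, with builds mm10 and GRCm38 and no tool versions. The sources used here do not give the settings. The table also holds the authors' fold changes and p-values, which were not used.

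The VhlhKO library held 34465017 counts and the Ctrl library 31817115. TMM scaling was done with edgeR 4.0.16 in R 4.3.3, and log2 ratios were taken with 0.5 CPM added, equal to 17.2 counts in VhlhKO and 16.0 in Ctrl. Genes needed 20 counts in at least 1 library. Ratio intervals are exact conditional binomial (Clopper-Pearson) and those of ratios of ratios exact conditional odds ratio intervals, at 95%.

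The 6 genes and the 15 further lists were chosen with earlier results of these data known. Named are the 6 genes and, per list, genes among the 4 with the largest absolute log2 ratio or the 2 with the most counts, or without counts. *Gsta2*, *Slc34a1*, *Fbp1* and *Fxyd2* fall under this rule, while *Aqp1*, *Slc27a2*, *Mme*, *Anpep*, *Ocrl*, *Clcn4*, *Des*, *Vdr* and *Gc* were named after their values were seen. Some genes and 1 motif of the lists are not reported here. Positions are from GENCODE M21 (GRCm38) and promoters from RefSeq GRCm38.p6, in which all 6 symbols matched. Alternatives were other scalings, TPM, pseudocounts, count minimums and fold sizes. Intervals were computed with scipy 1.17.1 and pandas 2.3.3 in Python 3.11.15.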

Additional observations from a re-analysis of the deposited data

How the results depend on the processing

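None of the 6 genes was past the fold size under any of the 10 alternatives, 3-fold and 1.5-fold included. Of these, 3-fold, 5 CPM added and the other count minimums could not have added a gene. A change of the pseudocount alone, to 0.05 or 5 CPM, could not change a sign. The log2 ratios of the 6 genes kept their signs under the 6 alternatives of scaling, unit and pseudocount, with ranges of 0.40 to 0.45 for *Lrp2*, 0.11 to 0.21 for *Cubn*, 0.10 to 0.12 for *Lrpap1*, 0.09 to 0.11 for *Clcn5*, -0.05 to -0.03 for *Dab2* and -0.08 to -0.02 for *Amn*. Over all genes, 261 were at least 2-fold higher and 80 lower. These counts moved to 435 higher and 151 lower with 0.05 CPM added, to 66 and 18 with 5 CPM added, to 725 and 278 at 1.5-fold and to 63 and 25 at 3-fold, and a minimum of 100 counts left 46 lower. Of 128 list medians under alternatives, 118 moved by less than 0.1 and 1 changed sign, that of the proximal tubule list, which was 0.06 with a minimum of 100 counts beside -1.17 with 20. It was -1.87 with 0.05 CPM added and -0.22 with 5 CPM added. Genes of this list past 2-fold numbered 12, and 0 with 5 CPM added, 2 with a minimum of 100 counts and 6 at 3-fold. The result with 5 CPM added was fixed in advance for all of the 12 but *Gsta2*, since they lay below 5 CPM in both libraries. No paired analysis was possible because each genotype has 1 library. Depth limits *Amn* and *Cubn* most.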

Other observations

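Transcription factors of tubule genes were all within 2-fold, as were all but 2.23% of measured genes. Of 8 measured factors, *Hnf4a*, the factor of mature proximal tubule cells, had 204 counts in VhlhKO against 230 in Ctrl (0.824, 0.679 to 0.999). *Maf* had the largest difference, with 3791 counts in VhlhKO against 4482 in Ctrl (0.786, 0.752 to 0.821). Over the 8 factors the median log2 ratio came to -0.06.

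The genes closest to *Lrp2* by the pair of log2 levels in the 2 libraries were *Hsd17b11* (1560 counts in VhlhKO against 1055 in Ctrl), *Pcdh19* (1571 in VhlhKO against 1029 in Ctrl) and *Hpcal1* (1491 in VhlhKO against 1079 in Ctrl), at distances of 0.0351 to 0.0618 on the log2 scale. Closest to *Cubn* were *Leng9*, *Tubb4a* and *Gpat3*, and closest to *Dab2* were *Spin1*, *Top2b* and *Cops2*. With 2 libraries such closeness is a description of level and ratio only.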
